A study of Mus musculus with 20 samples.

Results

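Mss51 and 9 genes of myostatin signalling were followed across 20 gastrocnemius samples of adult male C57BL/6 mice. The gastrocnemius is a calf muscle of mixed, mostly fast fibres. The 10 genes were taken from a list, each by its brightest probe set with a single gene symbol. All 10 were measured, each by 1 such probe set, among 19938 genes tested. NCoR1-MKO mice lacked the corepressor NCoR1 in muscle, and CON mice were their controls. PGC-1alpha-mTg mice overexpressed the coactivator PGC-1alpha in muscle, and wild-type (WT) mice were their controls. Each of the 4 groups had 5 arrays. The sources used here give neither the promoter that drove the transgene or the deletion, nor the genotype of CON, nor the age beyond adult. Earlier results of these data had shown Mss51 and Mstn far below their controls, and these values put them on the list. Both are therefore described with no test. The other 8 are parts of the same pathway, also chosen with results known, so their p-values describe this fit and are no independent evidence.

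Myostatin, encoded by Mstn, is a secreted factor of the TGF-beta family that muscle fibres make and that limits their growth. Its mature dimer binds an activin type II receptor, ACVR2A or ACVR2B, which brings in a type I receptor, ALK4 (Acvr1b) or ALK5 (Tgfbr1). The type I receptor phosphorylates SMAD2 and SMAD3, which enter the nucleus with SMAD4 and change transcription. GDF11 is the closest relative of myostatin and uses the same receptors. Follistatin (Fst) and the follistatin-like protein FSTL3 bind and block both ligands. Mss51, once called Zmynd17, encodes a mitochondrial MYND zinc finger protein of fast glycolytic fibres. Its yeast namesake promotes translation of the cytochrome c oxidase subunit Cox1, and the mouse gene has been described as responding to inhibition of myostatin.

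The values were Robust Multi-array Average (RMA) levels on the log2 scale. Array medians lay between 6.03 and 6.08 in NCoR1-MKO and CON, and between 5.84 and 5.91 in PGC-1alpha-mTg and WT. The level distributions matched within a cohort and not across cohorts, so every change is taken within a cohort. The transgene was seen in its label: Ppargc1a, which encodes PGC-1alpha, read 11.36 to 11.53 in PGC-1alpha-mTg and 9.38 to 9.75 in WT. Ncor1 was not analysed here, so the knockout label was not checked. A change is a log2 fold change ± SE of a model over its own controls (5 arrays in either group). A gene is said to rise or fall where limma gave a p-value under 0.05, adjusted over all genes by the Benjamini-Hochberg method. The labels number the samples without naming a mouse for each, so these p-values measure the spread between samples, which may be partly technical.

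Mss51 was 4.82-fold lower in NCoR1-MKO than in CON and 10.3-fold lower in PGC-1alpha-mTg than in WT. Mstn was 1.55-fold lower in the knockout and 2.34-fold lower in the transgenic muscle. Of the other 8 genes, 3 fell in the knockout (Gdf11, Acvr2a and Tgfbr1) and 6 in the transgenic muscle (these 3 with Acvr2b, Acvr1b and Smad3), and none rose in either. Neither Fst nor Fstl3 passed the test in either model. Across all genes tested, 1.32% were called lower and 1.31% higher in the knockout, and 16.1% lower and 11.9% higher in the transgenic muscle. With the 40 percent of genes of lowest mean level left out, 660 were called in the knockout and 5453 in the transgenic muscle. Over all genes these numbers were 525 and 5575, so the shares were higher among brighter genes, to which the 8 genes belong. The median change of the 8 genes was -0.11 in NCoR1-MKO, beside 0.0014 over all genes, and -0.38 in PGC-1alpha-mTg, beside 0.02 over all genes. In whole muscle, fewer cells of a type and less RNA per cell cannot be told apart.

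**Figure D1:**
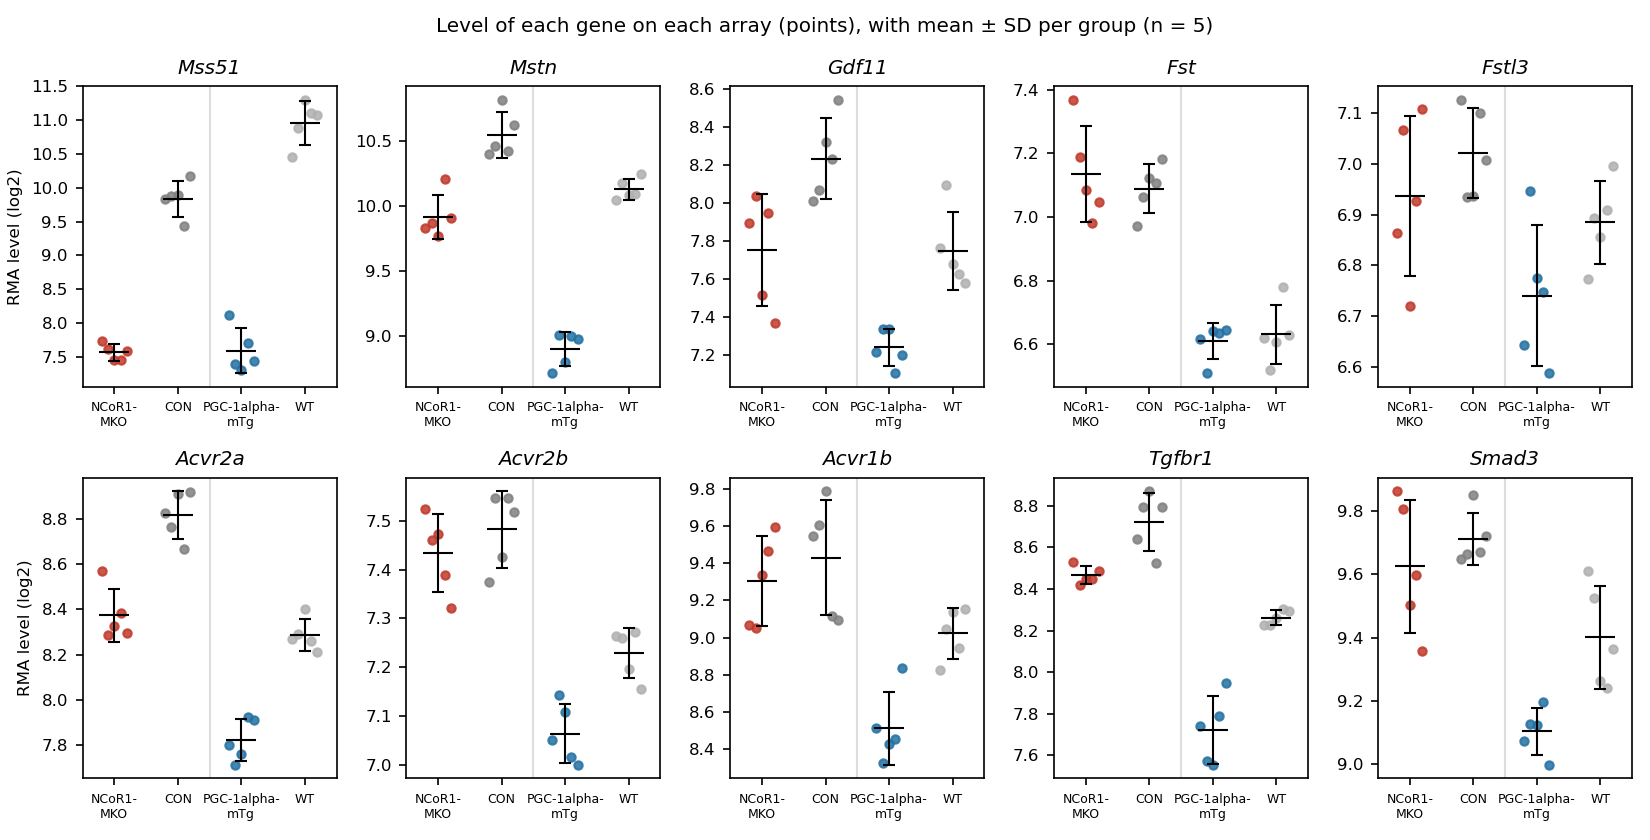
RMA level (log2, vertical axis, scaled for each gene) on each array, as points, with the mean and SD of each group of 5 as bars. Groups run NCoR1-MKO, CON, PGC-1alpha-mTg and WT, with a line between the cohorts. Mss51, Mstn and Acvr2a are the genes whose groups do not overlap in either cohort.

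Mss51 (probe set 10417887) read 7.74, 7.61, 7.46, 7.45 and 7.59 on the NCoR1-MKO arrays, against 9.83, 9.88, 9.89, 9.43 and 10.17 in CON. It averaged 7.57 ± 0.12 in NCoR1-MKO and 9.84 ± 0.27 in CON (SD, n = 5 each), a difference of -2.27 ± 0.15. The highest knockout array lay 1.69 below the lowest CON array. On the PGC-1alpha-mTg arrays the gene read 8.13, 7.39, 7.31, 7.71 and 7.44, against 10.45, 10.88, 11.30, 11.10 and 11.08 in WT. The means were 7.60 ± 0.33 in PGC-1alpha-mTg and 10.96 ± 0.32 in WT, a difference of -3.36 ± 0.15, with a gap of 2.32 between the groups. PGC-1alpha-mTg 1 was the highest transgenic array and WT 1 the lowest WT array. This was the most negative change of all 19938 genes in the transgenic muscle and ranked 2 from the lowest in the knockout. In the knockout Htra4 (-2.76) lay below it and Lgi1 (-1.52) was the next above. In the transgenic muscle Neto2 (-3.21) came next.

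Of the ligands, Mstn (probe set 10346250) read 9.83, 9.87, 9.77, 10.20 and 9.91 in NCoR1-MKO, against 10.40, 10.46, 10.82, 10.42 and 10.62 in CON. The difference was -0.63 ± 0.08, with every knockout array below every CON array and a gap of 0.20, the nearest knockout array being NCoR1-MKO 4. In PGC-1alpha-mTg it read 8.72, 9.01, 8.80, 9.00 and 8.97, against 10.05, 10.17, 10.08, 10.09 and 10.25 in WT. That difference was -1.23 ± 0.08, with a gap of 1.04. The transgenic arrays thus stood further below their controls than the knockout arrays did, by 0.60 ± 0.12 for Mstn and by 1.10 ± 0.21 for Mss51. Mss51 averaged 7.57 in NCoR1-MKO and 7.60 in PGC-1alpha-mTg, while its WT mean was 1.12 above its CON mean. For Mstn the WT mean was 0.42 below the CON mean. These levels compare cohorts whose distributions differ, and the part of the controls was not tested.

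Gdf11 (probe set 10373583), the relative of myostatin, read 7.89, 8.04, 7.51, 7.95 and 7.37 in NCoR1-MKO, against 8.01, 8.07, 8.32, 8.23 and 8.54 in CON. It fell by 0.48 ± 0.12 (limma adjusted p = 0.0299), although the groups overlapped: NCoR1-MKO 2 lay above CON 1. The call was lost without CON 3, 4 or 5 or NCoR1-MKO 3 or 5 (limma adjusted p up to 0.0959), and in a fit of the 10 arrays of this comparison alone (limma adjusted p = 0.0862). In PGC-1alpha-mTg the levels were 7.22, 7.34, 7.34, 7.10 and 7.20, against 7.77, 8.10, 7.68, 7.62 and 7.58 in WT. All transgenic arrays were below all WT arrays, and Gdf11 fell by 0.51 ± 0.12 (limma adjusted p = 0.00231). The knockout effect minus the transgenic effect was 0.03 ± 0.17 (limma adjusted p = 0.948), where 15.2% of all genes were called.

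The secreted antagonists, which hold the ligands away from their receptors, passed the test in neither model. Fst (probe set 10412260) ranged from 6.98 to 7.37 in NCoR1-MKO and from 6.97 to 7.18 in CON. Its change was 0.04 ± 0.06 (limma adjusted p = 0.906). In the other cohort it ranged from 6.51 to 6.64 in PGC-1alpha-mTg and from 6.52 to 6.78 in WT, with a change of -0.02 ± 0.06 (limma adjusted p = 0.848). Both pairs of groups overlapped. For Fstl3 (probe set 10364494) the levels ran from 6.72 to 7.11 in NCoR1-MKO and from 6.93 to 7.13 in CON, a change of -0.08 ± 0.07 (limma adjusted p = 0.789). They ran from 6.59 to 6.95 in PGC-1alpha-mTg and from 6.77 to 7.00 in WT, a change of -0.14 ± 0.07 (limma adjusted p = 0.150). PGC-1alpha-mTg 2 was the highest array of its group, and without it Fstl3 passed the test at -0.20 (limma adjusted p = 0.0461).

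Among the type II receptors, which bind the ligand first, Acvr2a (probe set 10471953) fell in both models. It read 8.57, 8.29, 8.33, 8.38 and 8.30 in NCoR1-MKO, against 8.83, 8.77, 8.91, 8.67 and 8.92 in CON, a change of -0.44 ± 0.06 (limma adjusted p = 9.98e-05). In PGC-1alpha-mTg it read 7.80, 7.71, 7.76, 7.92 and 7.91, against 8.27, 8.29, 8.40, 8.26 and 8.21 in WT, a change of -0.47 ± 0.06 (limma adjusted p = 2.98e-06). Neither pair of groups overlapped. The 2 effects differed by 0.02 ± 0.09 (limma adjusted p = 0.914). Acvr2b (probe set 10590169), the other type II receptor, read 7.32 to 7.52 in NCoR1-MKO and 7.37 to 7.55 in CON, a change of -0.05 ± 0.05 (limma adjusted p = 0.831). Between 7.00 and 7.14 in PGC-1alpha-mTg and 7.16 and 7.27 in WT, it fell by 0.17 ± 0.05 (limma adjusted p = 0.0108), a gap of 0.01 separating the groups. That call was lost after quantile normalization across the 20 arrays, where the change was -0.14 (limma adjusted p = 0.0588).

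The type I receptors carry the kinase that acts on the SMADs. Tgfbr1 (probe set 10504817) read 8.53, 8.42, 8.45, 8.45 and 8.49 in NCoR1-MKO, against 8.64, 8.79, 8.87, 8.53 and 8.79 in CON. It fell by 0.26 ± 0.07 (limma adjusted p = 0.0392), with NCoR1-MKO 1 just above CON 4. The call was the least stable of the 3 in the knockout. It was lost without CON 2, 3 or 5, without any 1 of the 5 NCoR1-MKO arrays or without WT 3 (limma adjusted p up to 0.129), with each array centred on its median (limma adjusted p = 0.0647) and in a fit of the 10 arrays of this comparison alone (limma adjusted p = 0.0526). In PGC-1alpha-mTg the gene read 7.74, 7.58, 7.56, 7.79 and 7.95, against 8.23, 8.23, 8.26, 8.30 and 8.29 in WT. It fell by 0.54 ± 0.07 (limma adjusted p = 1.34e-06), with a gap of 0.28 between the groups. The knockout effect minus the transgenic effect was 0.28 ± 0.09 (limma adjusted p = 0.0472), a difference that missed the threshold in 15 of 20 fits that left out 1 array (limma adjusted p up to 0.0970) and with each array centred on its median (limma adjusted p = 0.0508).

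Acvr1b (probe set 10427015), the other type I receptor, spread more widely. It read 9.05 to 9.59 in NCoR1-MKO and 9.09 to 9.79 in CON, a change of -0.13 ± 0.13 (limma adjusted p = 0.835). In PGC-1alpha-mTg it read 8.33 to 8.84, against 8.83 to 9.16 in WT, and fell by 0.51 ± 0.13 (limma adjusted p = 0.00391). PGC-1alpha-mTg 5 reached just above WT 1, so the groups touched. Smad3 (probe set 10594404), the transcription factor at the end of the chain, read 9.36 to 9.86 in NCoR1-MKO and 9.65 to 9.85 in CON, a change of -0.09 ± 0.08 (limma adjusted p = 0.828). It read 9.00 to 9.20 in PGC-1alpha-mTg and 9.24 to 9.61 in WT, where it fell by 0.30 ± 0.08 (limma adjusted p = 0.00920) with a gap of 0.04. For Acvr2b, Acvr1b and Smad3, called in the transgenic muscle and not in the knockout, the difference between the 2 effects did not pass (limma adjusted p = 0.288, 0.182 and 0.274).

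**Figure D2:**
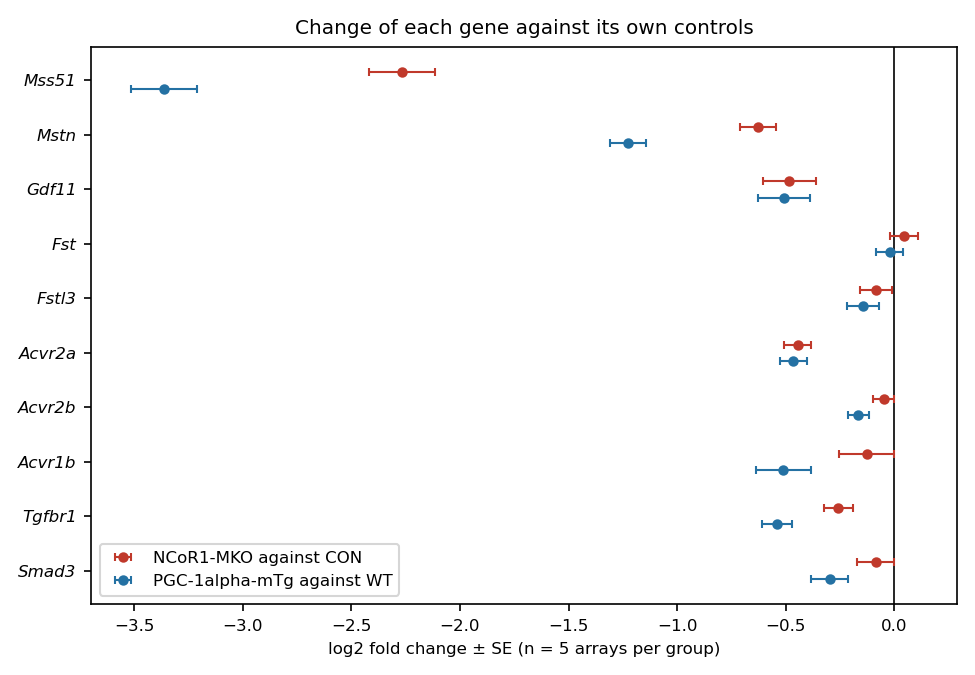
Log2 fold change of each gene (horizontal axis, error bars SE, n = 5 arrays per group) in NCoR1-MKO against CON, in red, and in PGC-1alpha-mTg against WT, in blue. Mss51 lies furthest from 0 in both, at -2.27 and -3.36, and Fst lies nearest to 0.

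In NCoR1-MKO the groups of 5 arrays did not overlap for 3 of the 10 genes, Mss51, Mstn and Acvr2a, all below CON. Of all genes, 1.96% lay wholly below CON in this way. In PGC-1alpha-mTg 7 of the 10 lay wholly below WT, all except Fst, Fstl3 and Acvr1b, beside 11.2% of all genes. These counts include Mss51 and Mstn, which were listed for this pattern, and nothing is read from them.

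The 250 bases before the start site of the 3 genes whose 5 arrays lay wholly below those of their controls in both models are given here, as RefSeq annotates them on GRCm38.p6, read 5′ to 3′ along the gene. Capitals mark the Smad box CAGAC, on either strand, and the Smad palindrome GTCTAGAC, since SMAD3 carries the myostatin signal to DNA. The palindrome was added after the sequences had been seen.
Mss51 (chr14:20496902-20497151, minus strand): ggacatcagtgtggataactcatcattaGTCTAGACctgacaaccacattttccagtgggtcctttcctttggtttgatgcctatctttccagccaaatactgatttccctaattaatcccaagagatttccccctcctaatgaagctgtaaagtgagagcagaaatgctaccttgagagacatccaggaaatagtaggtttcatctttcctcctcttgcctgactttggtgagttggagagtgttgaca
Mstn (chr1:53061390-53061639, plus strand): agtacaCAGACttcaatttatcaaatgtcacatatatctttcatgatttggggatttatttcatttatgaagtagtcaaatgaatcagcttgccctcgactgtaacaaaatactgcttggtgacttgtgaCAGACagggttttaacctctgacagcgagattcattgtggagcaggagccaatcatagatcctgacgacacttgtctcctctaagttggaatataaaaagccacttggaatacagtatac
Acvr2a (chr2:48813859-48814108, plus strand): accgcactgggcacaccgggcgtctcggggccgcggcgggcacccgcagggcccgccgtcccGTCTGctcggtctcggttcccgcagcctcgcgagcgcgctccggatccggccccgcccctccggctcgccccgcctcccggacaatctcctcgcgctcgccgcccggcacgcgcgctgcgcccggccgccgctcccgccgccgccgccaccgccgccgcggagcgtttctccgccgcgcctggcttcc

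Of the 10 genes, 9 had a promoter entry, a window of 300 bases from 250 before to 50 after the start site, searched on both strands. The Mss51 window held 1 Smad palindrome, beginning at position -222 from the start site, as did 0.213% of 32851 mouse promoter windows. This palindrome was added to the search after the sequence had been seen, so that share is no measure of how unusual the match is. It does not contain the Smad box, and the Mss51 window held no Smad box. The Mstn and Fstl3 windows held 2 Smad boxes each, and those of Acvr2a and Acvr2b and 1 of the 2 windows of Tgfbr1 held 1 each, while 49.6% of all windows held at least 1. The nuclear receptor half-site AGGTCA, in 16.3% of all windows, was found in that of Fstl3 alone among the 9 genes. The longer element TNAAGGTCA of estrogen-related receptors, partners of PGC-1alpha, contains that half-site and was in none of them, against 1.28% of all windows. The E-box CANNTG, bound by myogenic factors, was found 4 times before the Mstn start and not in the Mss51 window, with 72.3% of all windows holding it. The Fstl3 window held 3 E-boxes, and those of Gdf11 and Acvr1b and 1 of the 2 windows of Tgfbr1 held 1 each. Such matches describe the letters and are not shown to be bound. Mss51 and Mstn windows had 44.0% and 41.3% G and C, and that of Acvr2a 80.3%.

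The rest of the pathway was taken from lists of its ligands, binders, receptors and SMADs. Of 20 other ligands measured, 2 fell in the knockout, Tgfb3 at -0.29 ± 0.06 (limma adjusted p = 0.0114) and Tgfb2 at -0.26 ± 0.07 (limma adjusted p = 0.0421), beside 2.63% of all genes called in either direction. TGF-beta ligands signal through ALK5, the product of Tgfbr1. Both also fell in the transgenic muscle, Tgfb3 by 0.59 ± 0.06 and Tgfb2 by 0.37 ± 0.07. There Bmp6, a bone morphogenetic protein, rose by 0.27 ± 0.09 (limma adjusted p = 0.0316), so that 1 of the 20 rose and 2 fell, beside 28.0% of all genes called. Without PGC-1alpha-mTg 5 or WT 3 other ligands rose, making 3 and 2. The median over the list was -0.04 in the knockout and 0.04 in the transgenic muscle. The fall of Tgfb2 in the knockout was lost in 12 of 20 fits that left out 1 array (limma adjusted p up to 0.111), those without CON 2 to 5, NCoR1-MKO 2 to 5, WT 2 to 4 or PGC-1alpha-mTg 4. The rise of Bmp6 was lost without WT 4 or 5 or PGC-1alpha-mTg 4 or 5 (limma adjusted p up to 0.0834). Activin subunits Inhba and Inhbb, whose dimers use the same receptors as myostatin, were at 0.08 ± 0.05 and -0.08 ± 0.09 in the knockout and at -0.03 ± 0.05 and -0.09 ± 0.09 in the transgenic muscle, and passed no test.

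Of 19 secreted binders, processing and activating proteins, none was called in the knockout (0 by limma, with a median of -0.03), beside 2.63% of all genes. In PGC-1alpha-mTg 4 fell and 1 rose, at a median of -0.07, a share near the 28.0% of all genes called there. Ltbp3, a latent TGF-beta binding protein, fell by 0.36 ± 0.06 (limma adjusted p = 2.94e-05), and the proprotein convertase gene Pcsk6 by 0.37 ± 0.06 (limma adjusted p = 3.61e-05). Wfikkn2, which encodes an inhibitor of myostatin and GDF11 (GASP-1), fell by 0.29 ± 0.07 (limma adjusted p = 0.00294). Dcn, the matrix proteoglycan decorin, fell by 0.17 ± 0.04 (limma adjusted p = 0.00354). The 1 that rose was Wfikkn1, the relative of Wfikkn2, named after its value was seen, at 0.23 (limma adjusted p = 0.0450), and no gene of the list rose in 9 of 20 fits that left out 1 array.

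Of 12 other receptors and coreceptors, Bmpr1b, a type I receptor for bone morphogenetic proteins, was the 1 that fell in the knockout. Across all genes, 1.32% were called lower there. Bmpr1b averaged 6.58 in NCoR1-MKO and 7.20 in CON, a change of -0.61 ± 0.07 (limma adjusted p = 3.68e-06). The list median was -0.06, and 2 of the list fell without CON 2. In the transgenic muscle 4 fell and 1 rose, at a median of -0.03, beside 28.0% of all genes called, and 2 rose without CON 2 or 4, NCoR1-MKO 5, WT 2 or 5 or PGC-1alpha-mTg 2. Acvr1, which encodes the type I receptor ALK2, fell by 0.61 ± 0.06 (limma adjusted p = 1.52e-08), Bmpr1a by 0.35 ± 0.05 and the coreceptor gene Rgma by 0.34 ± 0.07. Endoglin, Eng, a coreceptor of endothelial cells, rose by 0.31 ± 0.09 (limma adjusted p = 0.00867). Bmpr1b fell there too, by 0.22 ± 0.07, and its fall in the knockout was larger, the knockout effect minus the transgenic effect being -0.39 ± 0.09 (limma adjusted p = 0.00473). The opposite held for Acvr1 (0.50 ± 0.08, limma adjusted p = 9.87e-05) and Bmpr1a (0.41 ± 0.07, limma adjusted p = 0.000113), whose changes in the knockout were -0.11 ± 0.06 and 0.07 ± 0.05 and missed the threshold. Of all genes, 15.2% were called in this test of the difference.

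Of 18 other SMADs and their regulators, 9 fell and none rose in the transgenic muscle, at a median of -0.15, beside 16.1% of all genes that fell. Among brighter genes that share was higher. Smad2, which shares the work of Smad3, averaged 7.03 in PGC-1alpha-mTg and 7.45 in WT, and fell by 0.42 ± 0.07 (limma adjusted p = 3.18e-05). Smurf2, a ubiquitin ligase that turns over SMADs and receptors, fell by 0.47 ± 0.05 (limma adjusted p = 5.91e-07), and Trim33, another SMAD-binding ubiquitin ligase, by 0.42 ± 0.08. Pmepa1, a membrane protein that is both a target and a brake of TGF-beta signalling, fell by 0.53 ± 0.07 (limma adjusted p = 6.89e-06). In the knockout none of the 18 was called, at a median of -0.04, beside 2.63% of all genes called there. The inhibitory Smad7 had the smallest p (limma adjusted p = 0.196, change -0.18 ± 0.07). The knockout effect minus the transgenic effect passed the test for Smad2 (0.43 ± 0.09), Smurf2 (0.46 ± 0.08) and Pmepa1 (0.40 ± 0.10), with limma adjusted p of 0.00241, 0.000200 and 0.00980. These 3 of 18 stood beside 15.2% of all genes called in that test, and nothing is read from their number. Of 9 genes known as SMAD targets, some of which (Smad7, Skil and Pmepa1) are also in that list, none was called in the knockout and 2 fell in the transgenic muscle, Pmepa1 and the matrix protein gene Tgfbi (-0.30 ± 0.08, limma adjusted p = 0.00610). The median of these targets was -0.11 in the knockout, with 9 changes below 0. It was -0.09 in the transgenic muscle, with 6 below 0 and 3 above.

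Myostatin signalling acts on muscle mass partly through the balance of growth and protein breakdown. Of 11 such genes, Fbxo30, a ubiquitin ligase of the atrophy programme restrained by bone morphogenetic protein signalling, rose in the knockout by 0.34 ± 0.06 (limma adjusted p = 0.00136) and in the transgenic muscle by 0.26 ± 0.06 (limma adjusted p = 0.00139). Eif4ebp1, a brake on translation, fell in the knockout by 0.26 ± 0.07 (limma adjusted p = 0.0356), a call lost without CON 1, 3, 4 or 5 or NCoR1-MKO 1 or 2 (limma adjusted p up to 0.117). In the transgenic muscle Trim63, the ubiquitin ligase MuRF1, fell by 0.64 ± 0.07 (limma adjusted p = 1.26e-07) and Igf1, a growth factor, by 0.80 ± 0.12, while the kinase gene Akt1 rose by 0.45 ± 0.05 (limma adjusted p = 9.58e-08). In all, 1 rose and 1 fell in the knockout, at a median of -0.10, and 2 rose and 2 fell in the transgenic muscle, at a median of -0.09, beside 2.63% and 28.0% of all genes called in these comparisons.

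**Figure D3:**
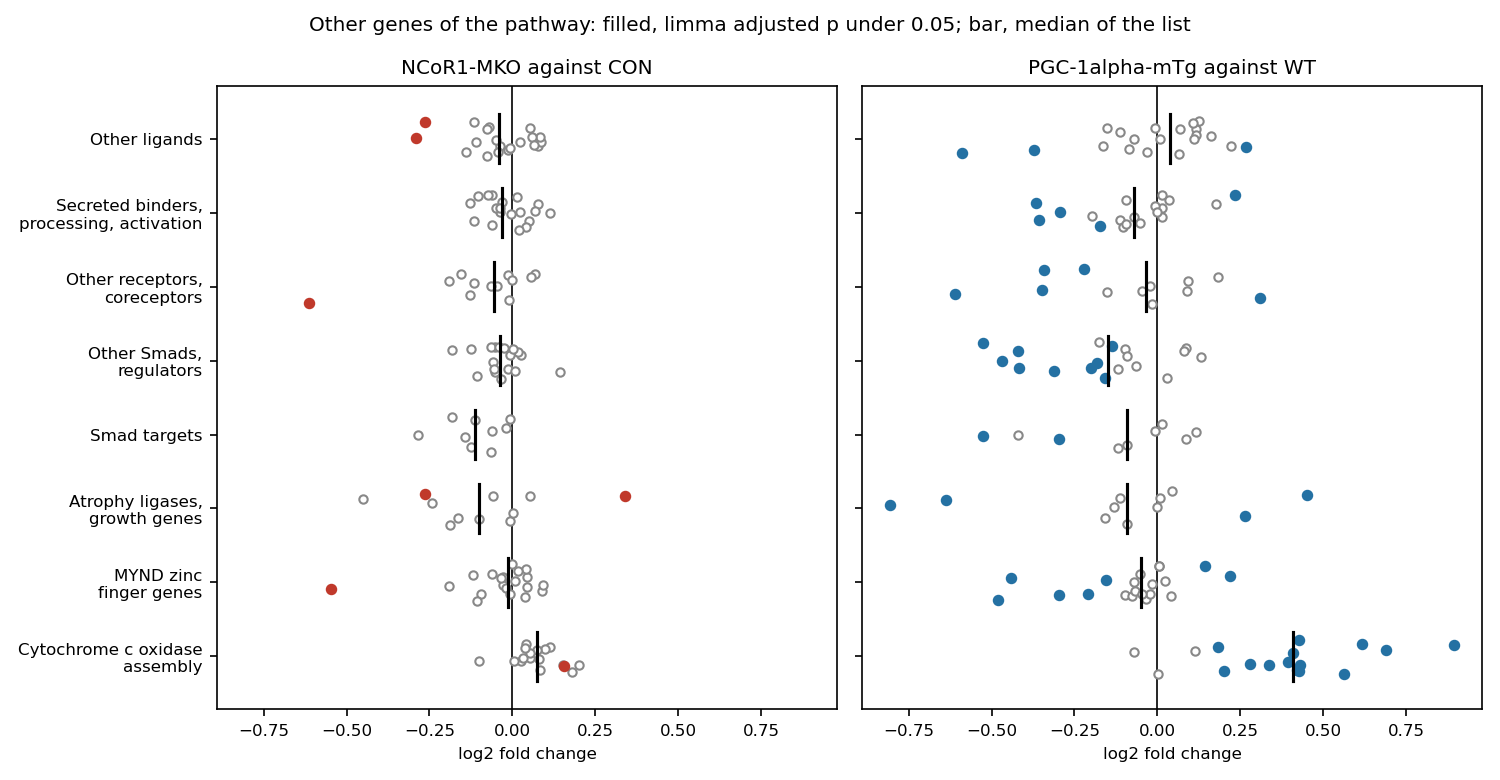
Log2 fold change (horizontal axis) of each measured gene in 8 lists, for NCoR1-MKO against CON on the left and PGC-1alpha-mTg against WT on the right. Filled points passed limma at an adjusted p under 0.05, open points did not, bars are list medians, and the vertical scatter within a list has no meaning. The 9 genes of SMADs and their regulators that fell in the transgenic muscle lie left of 0. The 14 cytochrome c oxidase assembly genes that rose lie right of it.

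Markers of fibre types and other cells were read in the same samples, where 2.63% of all genes were called in the knockout and 28.0% in the transgenic muscle. Of 8 slow-fibre markers, 2 fell in the knockout and 6 in the transgenic muscle, and none rose. Their mean level ran from 8.58 to 9.79 in NCoR1-MKO and from 9.42 to 10.43 in CON, and from 8.79 to 9.63 in PGC-1alpha-mTg and from 9.79 to 10.36 in WT. The 2 in the knockout were Myl2 and Myl3, the second of which lost its call without CON 1 or 2 or NCoR1-MKO 5, and the count reached 5 without CON 5 and 4 without NCoR1-MKO 3. Of 10 fast-fibre markers none was called in the knockout, while 5 fell and 1, Myh1, rose in the transgenic muscle (mean level 12.84 to 12.89, against 12.90 to 12.94 in WT). Endothelial markers rose in 1 of 8 cases in the knockout, Cdh5, whose call was lost without CON 3 or NCoR1-MKO 1. The count ran from 0 to 2 when 1 array was left out. All 8 changes were above 0 there, and the mean level was 8.78 to 9.17, against 8.58 to 8.83 in CON. In the transgenic muscle 5 of 8 endothelial markers rose (8.60 to 8.75, against 8.26 to 8.51 in WT). Markers of satellite cells fell in 3 of 6 cases in the transgenic muscle (6.31 to 6.42, against 6.60 to 6.63 in WT), and none was called in the knockout. Fibroblast markers fell in 2 of 7 there, none without PGC-1alpha-mTg 3 and 1 without WT 1, 2, 3 or 4 or PGC-1alpha-mTg 2. Nerve markers fell in 1 of 4, Pmp22, and in none without WT 3, 4 or 5 or PGC-1alpha-mTg 2, 3 or 4. Of 6 adipocyte markers 1, Lipe, rose in the transgenic muscle, and none of 6 macrophage markers and not the 1 blood marker measured, Alas2, was called in either model. The part of these cell types in the results above was not tested.

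The genes most like Mss51 and Mstn were sought by the root mean square distance over the 20 arrays, after subtracting each cohort's control mean from its arrays. Closest to Mss51 was Htra4, a serine protease gene, at a distance of 0.40, with changes of -2.76 ± 0.10 in NCoR1-MKO and -3.06 ± 0.10 in PGC-1alpha-mTg. Then came Ostn, which encodes the peptide musclin, at 0.99, Neto2 at 1.02, 1700001O22Rik at 1.11 and Pld5 at 1.16. Htra4 alone of these lay nearer to Mss51 than 0.9, while Mss51 itself lay 2.04 from its controls by this measure. Neto2 was like it in the transgenic muscle (-3.21 ± 0.21) and less so in the knockout (-0.42 ± 0.21). Mstn itself lay 0.70 from its controls by the same measure. The genes closest to it were Polk, a translesion DNA polymerase gene, at 0.16, the exocyst subunit gene Exoc7 at 0.18, the receptor kinase gene Musk of the neuromuscular junction at 0.19, Gadl1, a decarboxylase gene, at 0.19, and Odc1, the enzyme that begins polyamine synthesis, at 0.19. Their changes ran from -0.47 ± 0.08 (Exoc7) to -0.91 ± 0.09 (Musk) in the knockout and from -1.07 ± 0.07 (Polk) to -1.33 ± 0.12 (Odc1) in the transgenic muscle. These genes were chosen by these values, so no test is given for them.

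**Figure D4:**
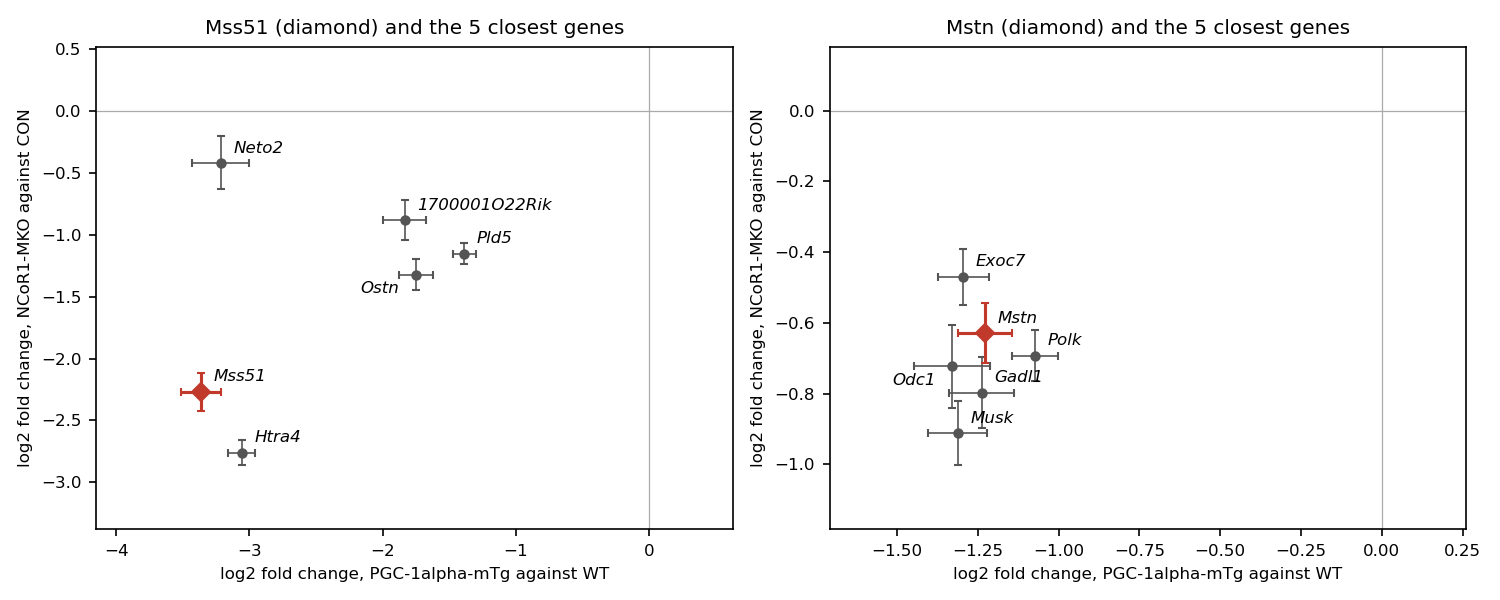
Log2 fold change in PGC-1alpha-mTg against WT (horizontal axis) and in NCoR1-MKO against CON (vertical axis), with SE bars, for Mss51 and Mstn (red diamonds) and the 5 genes closest to each over 20 arrays (grey points). Htra4 is the nearest to Mss51, at -3.06 and -2.76, and the neighbours of Mstn all lie below 0 on both axes.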

How the data were processed

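Total RNA of 20 gastrocnemius samples was labelled with biotin and hybridised to Affymetrix mouse gene arrays, 1 array a sample, per the labels' protocols. The deposited values were log2 expression levels per probe set made with RMA, and Partek is also named, both without a version, per the submitters' processing notes. Base 2 follows from RMA and the range of values. Genome build and annotation are not given in the sources used here. Array quantiles differed by up to 0.0630 on average within a cohort and by 0.169 to 0.228 between cohorts. No 2 arrays held identical values. The number of arrays limits the precision.

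Of 35556 probe sets, 21789 had 1 gene symbol in the platform's gene table, 1621 had several and 12146 had none here; 21698 matched RefSeq by Entrez number. The brightest probe set of each gene over all arrays was used, leaving 19938 genes. A linear model of the 4 group means over the 20 arrays was fitted by limma (version 3.58.1, under R 4.3.3, functions lmFit, contrasts.fit and eBayes), with two-sided p-values adjusted over all genes by Benjamini-Hochberg and calls under 0.05. The fit was tested on simulated data.

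The 10 genes, the further lists and the rules were chosen with earlier results of these data known. Named beyond the 10 are up to 4 called genes per list and comparison (or, with none called, the 1 of lowest p), the 5 genes closest to Mss51 and to Mstn, the neighbours in rank, and the targeted genes. A second value of a gene so named, in the other model or in the difference, and Inhba and Inhbb stand outside this rule. Alternatives were quantile normalization across arrays, a filter that removed the 40 percent of genes of lowest mean level, centring on the array median, the mean of probe sets, eBayes with trend and robust, array weights, the replicate number as a block, the 10 arrays of a comparison, and leaving out each array. Promoter sequences came from RefSeq (GRCm38.p6).

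The labels do not say whether same-numbered arrays form a pair. Their deviations from the group means correlated at -0.13 to 0.04 in NCoR1-MKO with CON and at -0.23 to 0.20 in PGC-1alpha-mTg with WT. These values do not settle it, and the fit with the replicate number as a block is given below.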

Additional observations from a re-analysis of the deposited data

Results flagged for a closer look

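Fst read 6.51 on array 2 of PGC-1alpha-mTg, below the 6.62 to 6.64 of the other 4, a gap wider than Dixon's 95% critical value allows for 5 samples. It was the only such value among 40 groups of 5 examined for the 10 genes, where chance gives about 1 in 20. Fst was also lowest on array 2 of WT, at 6.52.

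The Tgfbr1 effect differed between the models by a test of the difference itself: the knockout effect minus the transgenic effect was 0.28 ± 0.09 (limma adjusted p = 0.0472), with changes of -0.26 in NCoR1-MKO and -0.54 in PGC-1alpha-mTg. Of the 8 tested genes it was the 1 called in this test, beside 15.2% of all genes. It missed the threshold in 15 of 20 fits that left out 1 array. The call was also lost with the replicate number as a block (limma adjusted p = 0.0537) and with each array centred on its median (limma adjusted p = 0.0508).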

How the results depend on the processing

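None of the changes of the 10 genes passed the test with the opposite sign under any alternative, and those of Mss51 and Mstn moved by less than the SD between arrays. Leaving out 1 array gave -2.37 to -2.19 for Mss51 and -0.70 to -0.56 for Mstn in the knockout, and -3.50 to -3.28 and -1.25 to -1.18 in the transgenic muscle. Genes called numbered 525 in the knockout comparison, 5575 in the transgenic one and 3022 for the difference. Without 1 array they ranged from 370 to 617, from 4868 to 6544 and from 2648 to 3736. With the replicate number as a block they were 370, 5318 and 2631. In the knockout the block ended the calls of Gdf11 (limma adjusted p = 0.0865) and Tgfbr1 (limma adjusted p = 0.0589) and that of the Tgfbr1 difference (limma adjusted p = 0.0537). It left all 6 of the transgenic muscle. Of the 8 tested genes, 1 to 3 were called in the knockout and 5 to 7 in the transgenic muscle over all alternatives. Acvr2a was called in both under every one. Signal over background is not given, which limits what can be said of dim genes.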

Other observations

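Mss51 belongs to the genes with a MYND zinc finger, and its yeast namesake acts on Cox1. Of 20 other MYND genes, 1 fell in the knockout, beside 1.32% of all genes that fell. This was the methyltransferase gene Smyd2, which fell by 0.55 ± 0.05 (limma adjusted p = 1.74e-06). In the transgenic muscle 5 fell and 2 rose, beside 28.0% of all genes called, among them Smyd2 (-0.44 ± 0.05), the corepressor gene Cbfa2t2 (-0.48 ± 0.08) and Zmynd11 (-0.21 ± 0.04), with Zmynd12 higher at 0.22 ± 0.06, and 1 rose without WT 1, 2 or 5 or PGC-1alpha-mTg 2, 3 or 4. None came near the change of Mss51. Of 17 genes of cytochrome c oxidase assembly and Cox1 translation, 1 rose in the knockout, beside 1.31% of all genes that rose. This was Cox18 (0.16 ± 0.04, limma adjusted p = 0.0297), a call lost without CON 2, 4 or 5 or NCoR1-MKO 1, 3 or 4 (limma adjusted p up to 0.0756). Without CON 1 or WT 3, 3 genes of the list rose. In the transgenic muscle 14 rose and none fell, beside 11.9% of all genes that rose, at a median of 0.41, led by Taco1, an activator of Cox1 translation (0.89 ± 0.05), the heme synthesis gene Cox10 (0.69 ± 0.04) and Lrpprc, which stabilises mitochondrial transcripts (0.62 ± 0.05). For 10 of the 17 the knockout effect lay below the transgenic effect by a test of the difference, beside 15.2% of all genes called in that test.

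Levels of the 2 cohorts, whose distributions differ, are set side by side here as values. Mss51 averaged 10.96 in WT and 9.84 in CON, 1.12 higher in WT, while the other 9 genes were 0.14 to 0.53 lower in WT and the median gene 0.17 lower. Only 10 genes, Mss51 included, had a difference at least as large. After quantile normalization across the 20 arrays, the difference was 1.49 and 6 genes reached it, while the other 9 genes ran from -0.25 to 0.09 and the median gene was at 0.02 (WT minus CON). The levels in the models were close to each other, 7.57 in NCoR1-MKO and 7.60 in PGC-1alpha-mTg, and after that normalization 7.44 and 7.75. Cohort and control genotype cannot be told apart here, so no test is given.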
